A study of Mus musculus with 17 samples.

Results

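The 10 genes Hmox1, Slc40a1, Tfrc, Fth1, Ftl1, Cp, Slc11a1, Slc11a2, Ireb2 and Ncoa4 take up, store, release or sense iron. They were picked by gene symbol among the 41388 mouse genes counted, and 10 of 10 had a gene identifier in the count tables. RNA-seq had been run on bone marrow-derived macrophages (BMMs), grown in M-CSF, and on preosteoclasts (preOCs, called OC in the labels), grown in M-CSF with RANKL at 100 ng/ml for 24 h. Per the study's methods, Bap1flox cells came from Bap1flox/flox littermates without Cre. The same methods give the Bap1ΔLysM mice (Bap1LysM in the labels) as Bap1flox/flox with 1 LysM-Cre allele. This Cre is made from the lysozyme M gene Lyz2 and so is active in myeloid cells. Per the study's text the mice were 20-week-old males. There were 3 Bap1flox and 3 Bap1ΔLysM BMM libraries, 6 Bap1flox preOC libraries (replicates 1 to 6) and 5 Bap1ΔLysM preOC libraries (replicates 1, 2, 4, 5 and 6). BMMs existed for replicates 1 to 3 only.

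Iron enters cells as transferrin bound to the transferrin receptor (Tfrc) and crosses the endosomal membrane through divalent metal transporters such as Slc11a2. Macrophages also recover it from the heme of engulfed red cells through heme oxygenase 1 (Hmox1), store it in ferritin, a shell of heavy (Fth1) and light (Ftl1) chains, and return it to plasma through ferroportin (Slc40a1), aided by the ferroxidase ceruloplasmin (Cp). When iron is low, iron regulatory proteins, of which Ireb2 encodes one, bind hairpins in mRNAs called iron-responsive elements. Binding in a 5′ untranslated region blocks translation, and binding in a 3′ untranslated region protects the mRNA from decay, so ferritin and ferroportin fall while the receptor rises. Osteoclasts, which resorb bone, hold many mitochondria and are known for high iron uptake through Tfrc.

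The hairpins of this switch were looked up in the members' transcripts because they divide the genes into those under control of translation and those under control of mRNA decay. The pattern was an unpaired C, 5 bases, a loop of the 6 letters CAGTGN, and 5 bases pairing with the first 5 (G with T allowed), on the transcript's strand only. The RefSeq tables at hand held no untranslated regions, so the GENCODE M21 transcripts of GRCm38 were used. Each hairpin is printed 5′ to 3′ with the loop in capitals. The 17 bases of the pattern, from the unpaired C on, have 5 more bases on either side. The first 3 lie in exons of 5′ untranslated regions, of Fth1 at chr19:9982733-9982759 (plus strand), of Ftl1 at chr7:45459780-45459806 (minus strand) and of Slc40a1 at chr1:45925466-45925492 (minus strand).
Fth1: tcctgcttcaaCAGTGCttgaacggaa
Ftl1: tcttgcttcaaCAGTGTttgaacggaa
Slc40a1: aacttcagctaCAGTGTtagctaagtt

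Tfrc held 4 such hairpins, all in its 3′ untranslated region on the plus strand of chromosome 16, at chr16:32631220-32631246 (a), chr16:32631599-32631625 (b), chr16:32631664-32631690 (c) and chr16:32631711-32631737 (d).
Tfrc a: attatcggaagCAGTGCcttccataat
Tfrc b: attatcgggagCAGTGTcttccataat
Tfrc c: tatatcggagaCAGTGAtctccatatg
Tfrc d: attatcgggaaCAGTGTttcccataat

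The other 6 members had no match to these letters. The pattern asked for 5 unbroken pairs, so an element with a bulge in that stem would be missed. A lack of a match is therefore not a lack of an element. Over all genes with an annotated region, 31 of 20916 (0.148%) had a match in a 5′ and 129 of 21707 (0.594%) in a 3′ untranslated region. RNA-seq counts show mRNA levels, not the translation that the 5′ hairpins act on.

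Library totals were 44684670 to 54195199 reads counted to genes in BMMs and 37967542 to 61369441 in preOCs. The share of reads from mitochondrially encoded genes was 0.48% to 1.07% in preOC replicates 1 to 3 and 2.36% to 5.26% in replicates 4 to 6. It was higher in Bap1ΔLysM than in Bap1flox preOCs at each of the 5 shared replicate numbers, and its part in the results was not tested. Replicates 4 to 6 had no BMM libraries and were split from replicates 1 to 3 by number, and the 2 sets were also analysed apart. Lyz2, the gene that carries the Cre, was at 0.148% to 0.473% of the Bap1flox mean in 6 of the 8 Bap1ΔLysM libraries. The libraries labelled Bap1ΔLysM preOC replicate 1 and Bap1ΔLysM BMM replicate 1 held it at 79.7% and 45.3%, and results are also given without them. That the mice had 1 Cre allele is the study's account, and the number of alleles was not tested. In the 6 libraries the loss of Lyz2 goes with the genotype label and cannot be told apart from Bap1 deletion. Counts of Bap1 itself over the whole gene were 82.8 ± 5.92 CPM (SD, n = 6) in Bap1flox and 71.6 ± 9.81 (n = 5) in Bap1ΔLysM preOCs, a log2 difference of -0.22 (SE 0.10) that did not pass edgeR's test (adjusted p = 0.18).

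The first question was what iron genes do in preOCs when Bap1 is deleted. Hmox1, Tfrc, Slc40a1 and Cp were higher in Bap1ΔLysM than in Bap1flox preOCs, about 2.08-fold, 1.52-fold, 2.13-fold and 3.17-fold, while none of the 10 was lower by the test. Ferritin, both metal transporters of the Slc11 family, Ireb2 and Ncoa4 did not pass. Thus 4 of 10 members passed an adjusted p of 0.05 in edgeR's quasi-likelihood test, all 4 higher, against 15.8% of the 12919 genes tested (7.12% higher). The median log2 difference of the members was 0.34, with 9 above 0, and that of all genes was -0.0071. The members were chosen with earlier results of these data known, so these shares and medians are a description only. Values below are CPM (each count scaled to the size of its library) with the TMM adjustment for library composition, and each fold change is from the edgeR fit.

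**Figure D1:**
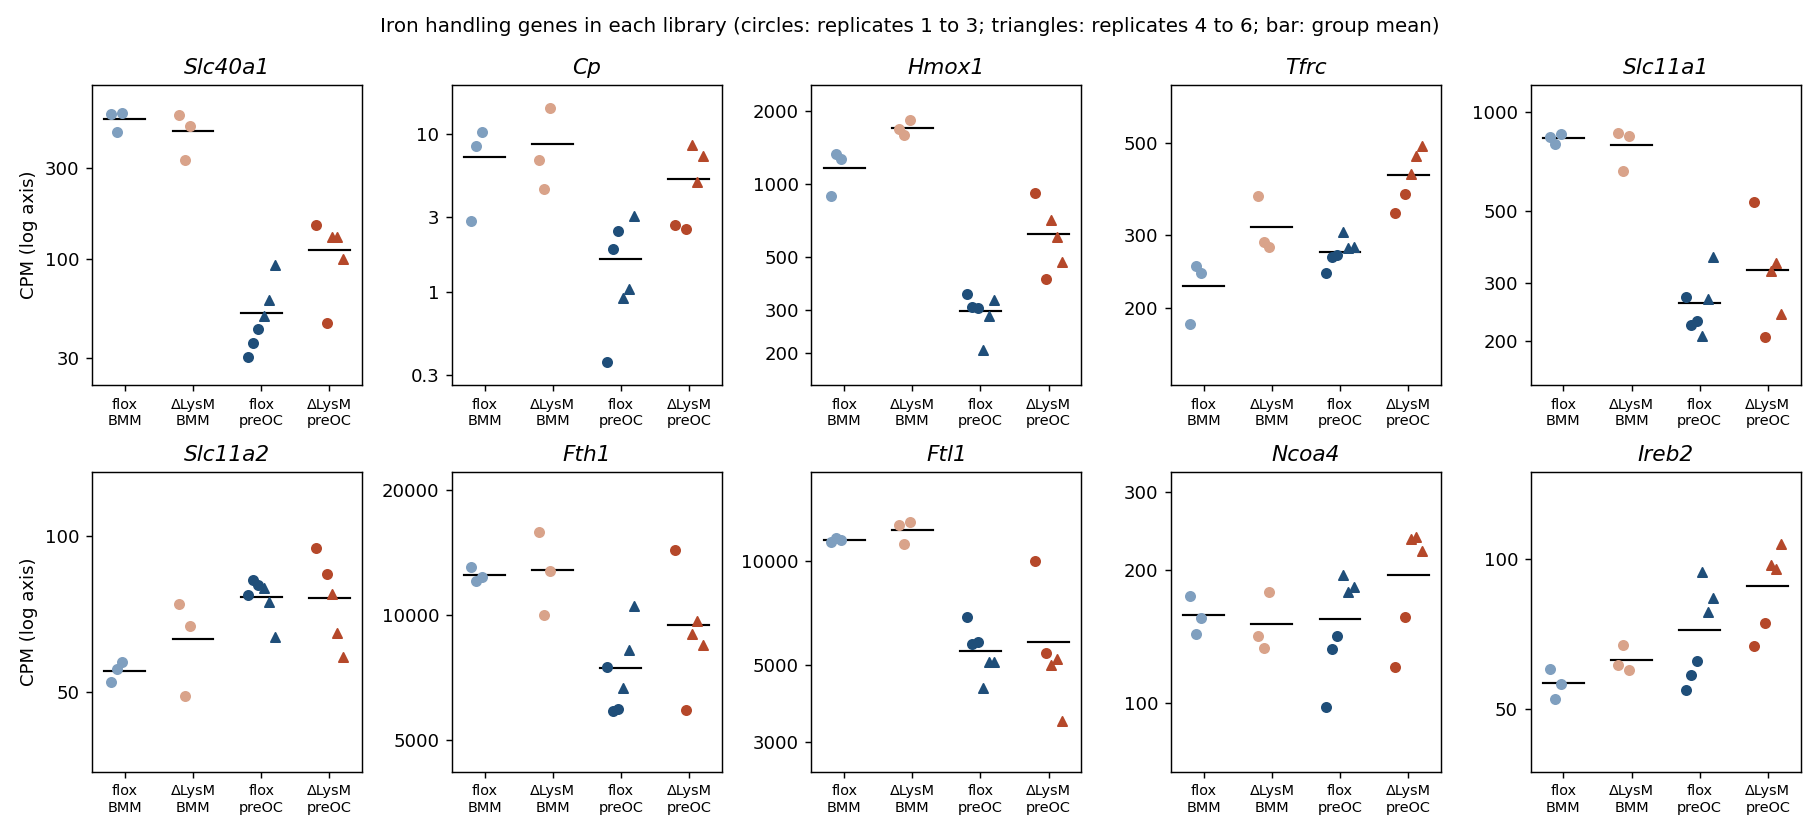
Level of each of the 10 iron genes in every library (CPM after TMM scaling, log axis) by genotype and cell type; circles are replicates 1 to 3, triangles replicates 4 to 6, and the bar is the group mean. For Hmox1 and Tfrc every Bap1ΔLysM library lies above every Bap1flox library in both cell types, and Slc40a1 is at 30.5 to 92.9 CPM in Bap1flox preOCs against 463 to 584 CPM in Bap1flox BMMs.

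Hmox1 (ENSMUSG00000005413, GRCm38 chr8:75093591-75100596, plus strand) opens the heme ring and frees its iron. In Bap1flox preOCs it was at 207 CPM in the lowest, 309 in the median and 349 in the highest library. In Bap1ΔLysM preOCs it was at 913, 406, 710, 605 and 478 CPM in replicates 1, 2, 4, 5 and 6. Every Bap1ΔLysM library was above every Bap1flox library, which was so for 3.71% of genes. The log2 difference was 1.05 (SE 0.20, edgeR adjusted p = 0.0057), with a 95% interval of 0.66 to 1.45. It was 1.04 in replicates 1 to 3 and 1.11 in replicates 4 to 6, so the sets had like sizes, and without the library labelled Bap1ΔLysM preOC replicate 1, the highest of all, it was 0.87 (edgeR adjusted p = 0.0053).

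Tfrc (ENSMUSG00000022797, GRCm38 chr16:32608920-32632794, plus strand), the transferrin receptor that brings iron into the cell, had the smallest SE of the 4. The lowest, median and highest Bap1flox preOC libraries were at 243, 274 and 305 CPM. The Bap1ΔLysM preOC libraries were at 339, 377, 421, 466 and 491 CPM in the same order of replicates. All 5 lay above all 6 Bap1flox libraries. The log2 difference was 0.60 (SE 0.10, edgeR adjusted p = 0.0026). Replicates 1 to 3 alone gave 0.46 and replicates 4 to 6 alone 0.66. Without the library labelled Bap1ΔLysM preOC replicate 1 it was 0.67 (edgeR adjusted p = 0.00056). Hmox1 and Tfrc kept their call with any 1 of the 11 libraries left out.

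Slc40a1 (ENSMUSG00000025993, GRCm38 chr1:45908068-45926523, minus strand) encodes ferroportin, the exporter of iron. Its lowest, median and highest Bap1flox preOC libraries were at 30.5, 46.6 and 92.9 CPM. The Bap1ΔLysM preOC libraries were at 151, 46.2, 131, 129.9 and 99.9 CPM. Replicate 2 fell at the Bap1flox median and the other 4 were above every Bap1flox library. The log2 difference was 1.09 (SE 0.32, edgeR adjusted p = 0.038). The call was kept in 2 of the 11 fits with 1 library left out, those without Bap1ΔLysM preOC replicate 2 or Bap1flox preOC replicate 6. The others gave adjusted p = 0.060 to 0.094 by edgeR, and the log2 difference was 0.95 to 1.33 over all 11, lowest without the library labelled Bap1ΔLysM preOC replicate 1. Replicates 1 to 3 alone gave 1.44 and replicates 4 to 6 alone 0.81.

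Cp (ENSMUSG00000003617, GRCm38 chr3:19957054-20009145, plus strand), a copper enzyme that oxidises the iron leaving the cell, was the least abundant member. It held 18 to 140 reads in the Bap1flox preOC libraries, 0.363 CPM in the lowest, 1.46 in the median and 3.04 in the highest. The Bap1ΔLysM preOC libraries were at 2.67, 2.52, 8.45, 4.94 and 7.25 CPM, from 102 to 499 reads. Replicates 1 and 2 overlapped the Bap1flox libraries and replicates 4, 5 and 6 were above all of them. The log2 difference was 1.66 (SE 0.50, edgeR adjusted p = 0.041). Replicates 4 to 6 alone gave 2.05, and replicates 1 to 3 alone 0.72 (edgeR unadjusted p = 0.35). The call was kept in 4 of 11 fits with 1 library left out, among them the fit without the library labelled Bap1ΔLysM preOC replicate 1 (1.82, edgeR adjusted p = 0.026), and the remaining 7 gave 0.053 to 0.12.

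Ferritin mRNA did not pass edgeR's test in preOCs. Fth1 (ENSMUSG00000024661, GRCm38 chr19:9982703-9985092, plus strand), the heavy chain with the ferroxidase site, had a mean of 7452 ± 1749 CPM (SD, n = 6) in Bap1flox preOCs and of 9489 ± 3087 (n = 5) in Bap1ΔLysM preOCs (log2 difference 0.35, SE 0.22, edgeR adjusted p = 0.31). Ftl1 (ENSMUSG00000050708, GRCm38 chr7:45457944-45459884, minus strand), the light chain, was at 5496 ± 882 and 5810 ± 2479 CPM (0.08, SE 0.24, edgeR adjusted p = 0.86). For both, 1 library stood above the rest of its group. The library labelled Bap1ΔLysM preOC replicate 1 had 14380 CPM of Fth1 and 10021 of Ftl1, against 5896 to 9669 and 3433 to 5414 in the other 4. Without it the log2 differences were 0.14 and -0.22. By voomWithQualityWeights, which weights libraries by their spread, Fth1 passed (0.36, adjusted p = 0.031, limma), as did 54.9% of all genes. This weighting is the one named in the study's methods. Reads of ferritin pseudogenes, to which unique alignment can lose or add reads, were 0.00214% to 0.0245% of the Fth1 count and 0.628% to 1.47% of the Ftl1 count.

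Slc11a1 (ENSMUSG00000026177, GRCm38 chr1:74375195-74386062, plus strand), the divalent metal transporter of phagosomes, was at 260.3 ± 55.4 CPM in Bap1flox and 330.2 ± 127 in Bap1ΔLysM preOCs (log2 difference 0.34, SE 0.23, edgeR adjusted p = 0.34). Its value of 532 CPM in the library labelled Bap1ΔLysM preOC replicate 1 stood above the 205 to 345 CPM of the other 4, and without it the log2 difference was 0.09. It too passed by voomWithQualityWeights (0.36, adjusted p = 0.036, limma), which called 54.9% of all genes. Slc11a2 (ENSMUSG00000023030, GRCm38 chr15:100387898-100425072, minus strand), the endosomal transporter, was at 76.2 ± 6.63 and 75.99 ± 14.6 CPM (-0.01, SE 0.13, edgeR adjusted p = 0.97). With TMM factors replaced by RLE factors its difference was 0.013, so no direction holds for it.

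Ireb2 (ENSMUSG00000032293, GRCm38 chr9:54863755-54912534, plus strand), which encodes iron regulatory protein 2, and Ncoa4 (ENSMUSG00000056234, GRCm38 chr14:32159865-32179855, plus strand), the receptor that carries ferritin to the lysosome, gave calls that changed between models. Ireb2 was at 71.9 ± 15.9 CPM in Bap1flox and 88.2 ± 16.97 in Bap1ΔLysM preOCs (log2 difference 0.29, SE 0.16, edgeR adjusted p = 0.25). Ncoa4 was at 155 ± 37.0 and 194 ± 52.4 CPM (0.32, SE 0.20, edgeR adjusted p = 0.32). Both were higher in replicates 4 to 6 than in replicates 1 to 3 of the same genotype. Ncoa4 was at 98.1 to 142 CPM in Bap1flox replicates 1 to 3 and at 178 to 195 in replicates 4 to 6. With the replicate number as a block in edgeR both passed, Ireb2 at 0.26 (adjusted p = 0.020) and Ncoa4 at 0.29 (adjusted p = 0.0077), and 6 of 10 members were called against 32.8% of all genes. Adding a term for library set instead, Ireb2 passed (0.24, edgeR adjusted p = 0.016) and Ncoa4 did not (0.24, edgeR adjusted p = 0.086), while in replicates 4 to 6 alone Ireb2 did not (0.22, edgeR adjusted p = 0.10). By voomWithQualityWeights, which called 54.9% of all genes, both passed, Ireb2 at 0.44 (adjusted p = 0.0072) and Ncoa4 at 0.57 (adjusted p = 0.0055).

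**Figure D2:**
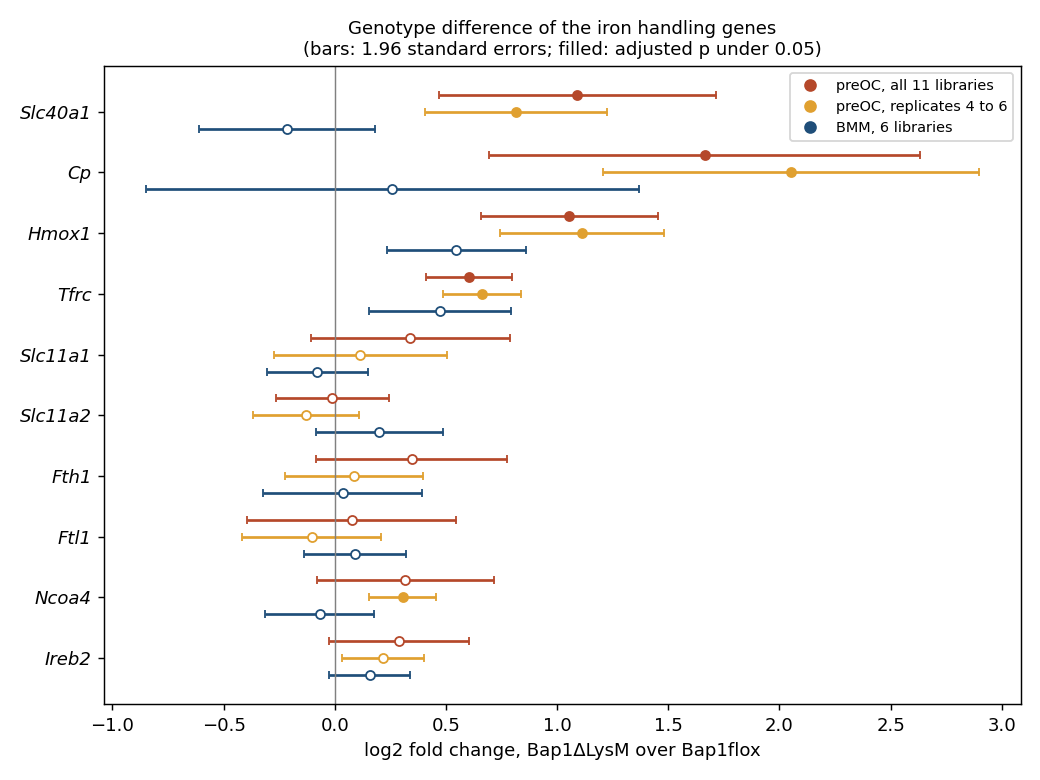
Log2 difference of Bap1ΔLysM against Bap1flox for each of the 10 genes (edgeR; bars are 95% intervals, filled points passed an adjusted p of 0.05) in preOCs over 11 libraries, in preOC replicates 4 to 6 alone and in BMMs. Hmox1 and Tfrc lie to the right of 0 in all 3 fits, whereas Slc40a1 is at 1.09 in preOCs and -0.22 in BMMs.

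Split by library set, the calls were uneven. In replicates 4 to 6 alone, 5 of 10 members passed edgeR's test, namely Hmox1 (adjusted p = 0.0027), Tfrc (0.00095), Slc40a1 (0.017), Cp (0.0072) and Ncoa4 (0.015), against 33.7% of genes. In replicates 1 to 3 alone, 3 Bap1flox against 2 Bap1ΔLysM libraries, edgeR called 0 of 10 at adjusted p and 0% of all genes. At an unadjusted p under 0.05 it called 4 of 10, Hmox1, Slc40a1, Tfrc and Ireb2, against 17.4% of genes. The 4 genes called over all libraries were above 0 in either set. Without the library labelled Bap1ΔLysM preOC replicate 1, 3 of 10 members were called (Hmox1, Tfrc and Cp), against 23.9% of genes.

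Other cell types may add RNA to such cultures, and in bulk RNA fewer cells of a type cannot be told apart from less RNA per cell. The summed level of the neutrophil markers was 67.5 to 188 CPM in Bap1flox and 177 to 619 CPM in Bap1ΔLysM preOCs, and 7 of the 9 markers tested rose. Markers said here to rise or fall were called by edgeR at adjusted p. Of all genes 7.12% were called higher and 8.67% lower. That of proliferation markers was 1268 to 1505 CPM against 954 to 1189, and 4 of 8 fell. Macrophage markers summed to 3722 to 4765 CPM in Bap1flox and to 5395, 3787, 5611, 5591 and 4930 CPM in the Bap1ΔLysM libraries, above every Bap1flox library in all but replicate 2, and 2 of 8 rose. Dendritic cell markers summed to 3.01 to 5.26 CPM against 5.48 to 11.6 CPM without overlap, and both of the markers tested rose, 2 of 7 listed. Osteoclast markers were lowest in replicate 1 of either genotype, at 6668 CPM in Bap1flox (10509 to 14023 in the other 5) and 6061 CPM in the library labelled Bap1ΔLysM (13366 to 16493 in the other 4). Of the 10 osteoclast markers 8 were above 0, and 1 fell. All 7 stromal markers tested were below 0, with 0 called by edgeR and 1 at an unadjusted p under 0.05. Their sums were 1130 to 1959 CPM in Bap1flox replicates 1 to 3, 183 to 317 in Bap1flox replicates 4 to 6, and 379, 1261, 442, 99.3 and 381 CPM in the Bap1ΔLysM libraries. Erythroid markers came to at most 0.816 CPM in any preOC library. The neutrophil sums of the libraries labelled Bap1ΔLysM preOC replicates 1 and 2, 177 and 182 CPM, lay within the Bap1flox range, and those of replicates 4 to 6 at 458 to 619 CPM lay above it. Cp followed the same split, Slc40a1 was within the Bap1flox range in replicate 2 only, and Hmox1 and Tfrc were above it in all 5. The part of any of these cell types in the changes of the 4 genes was not tested.

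The same genotypes were compared in BMMs, before RANKL. The Bap1flox BMM libraries held 893, 1323 and 1265 CPM of Hmox1, and the Bap1ΔLysM BMM libraries 1682, 1587 and 1832. Of Tfrc they held 183, 253 and 243 CPM against 373, 289 and 281. Both were higher in all 3 Bap1ΔLysM libraries than in any Bap1flox library, which held in that direction for 16.9% of genes. The log2 differences were 0.55 for Hmox1 (SE 0.16, edgeR adjusted p = 0.090) and 0.47 for Tfrc (SE 0.16, edgeR adjusted p = 0.13), and neither passed. Without the library labelled Bap1ΔLysM BMM replicate 1, which had the highest Tfrc value, they were 0.55 (edgeR adjusted p = 0.15) and 0.33 (edgeR adjusted p = 0.24). The summed level of proliferation markers was also higher without overlap, 528 to 718 CPM in Bap1flox and 831 to 1359 in Bap1ΔLysM BMMs, with 8 of 8 above 0. All 9 neutrophil markers tested were above 0 (sums of 79.2 to 258 against 223 to 326 CPM) and all 6 stromal markers below 0 (487 to 2784 against 367 to 1302 CPM). Of these markers 0 were called by edgeR, while 3 proliferation and 1 neutrophil marker had an unadjusted p under 0.05. The only erythroid marker tested was called lower (log2 -2.36), as were 4.01% of all genes. Erythroid sums were 2.54 to 4.65 CPM in Bap1flox and 0.529 to 1.19 CPM in Bap1ΔLysM BMMs. The part of any of these markers in the BMM values was not tested.

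By edgeR 0 of 10 members were called in BMMs at adjusted p, against 5.32% of 13028 genes, and 2 of 10 at an unadjusted p under 0.05, against 26.2%. DESeq2 called Hmox1 (adjusted p = 0.0094) and Tfrc (adjusted p = 0.043), against 15.9% of genes, and voomWithQualityWeights called 0, against 13.6%. With the replicate number as a block Hmox1 passed edgeR's test (0.57, adjusted p = 0.045), against 16.2% of genes. Slc40a1 was at 574, 463 and 584 CPM in Bap1flox and 571, 332 and 498 CPM in Bap1ΔLysM BMMs. Its log2 difference of -0.22 (SE 0.20, edgeR adjusted p = 0.52) had the other sign than in preOCs. Cp spanned 2.82 to 10.3 CPM in Bap1flox and 4.49 to 14.5 in Bap1ΔLysM BMMs, and its difference of 0.26 had an SE of 0.57. The other 6 members differed by -0.08 to 0.20.

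The next comparison was of preOCs with BMMs within a genotype, over replicates 1 to 3. In Bap1flox cells 24 h of RANKL came with a fall of ferroportin, heme oxygenase 1, ceruloplasmin, Slc11a1 and both ferritin chains, and with a rise of Slc11a2. Thus 6 members fell and 1 rose in edgeR's test, 7 of 10, against 64.6% of the 13412 genes tested (32.9% lower, 31.7% higher). The median log2 difference was -0.95 for the members and -0.05 for all genes.

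The largest of these changes was that of Slc40a1, from 574, 463 and 584 CPM in BMMs to 30.5, 36.2 and 42.9 CPM in preOCs of the same replicates. That is 15.0-fold lower (log2 -3.91, SE 0.16, edgeR adjusted p = 5.7e-06). Hmox1 went from 893, 1323 and 1265 to 349, 311 and 307 CPM, or 3.65-fold lower (-1.87, SE 0.15, edgeR adjusted p = 6.6e-05). Slc11a1 went from 844, 802 and 858 to 272, 223 and 230.2 CPM, 3.5-fold lower (-1.81, SE 0.09, edgeR adjusted p = 1.1e-05). In these 3 genes no preOC library came near the BMM range.

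Both chains of ferritin fell at the mRNA level. Fth1 went from 13083, 12121 and 12377 to 7496, 5874 and 5937 CPM (log2 -0.98, SE 0.11, edgeR adjusted p = 0.00027), and Ftl1 from 11337, 11659 and 11520 to 6888, 5753 and 5835 CPM (-0.92, SE 0.09, edgeR adjusted p = 0.00012). Cp, at 2.82, 8.38 and 10.3 CPM in BMMs and 0.363, 1.88 and 2.45 in preOCs, fell by 2.21 on the log2 scale (SE 0.70, edgeR adjusted p = 0.027). That call was lost in 3 of 6 fits with 1 library left out, without BMM replicate 2 or 3 or preOC replicate 2 (edgeR adjusted p = 0.066 to 0.088).

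Slc11a2 went the other way, from 52.4, 55.4 and 57.3 CPM in BMMs to 76.9, 82.3 and 80.3 in preOCs, a rise of 1.43-fold (log2 0.51, SE 0.06, edgeR adjusted p = 0.00031). Tfrc was at 183, 253 and 243 CPM before and 243, 266 and 269 CPM after RANKL. The ranges overlapped and the difference of 0.17 (SE 0.12, edgeR adjusted p = 0.24) did not pass. Ireb2 differed by 0.03 (edgeR adjusted p = 0.75). Ncoa4 was lower in all 3 preOC libraries than in any BMM library, with a difference of -0.37 (SE 0.14, edgeR adjusted p = 0.056). It passed with DESeq2 (adjusted p = 0.038), with voomWithQualityWeights (adjusted p = 0.042) and with all libraries in 1 edgeR fit (adjusted p = 0.014). Separation of the libraries in that direction was found for 35.3% of genes. All 8 macrophage markers fell, and all 10 osteoclast and all 8 proliferation markers rose in the same libraries. Of all genes 32.9% were called lower and 31.7% higher. The only erythroid marker tested also fell (log2 -5.63), with sums of 2.54 to 4.65 CPM in BMMs and 0.262, 0.703 and 0.325 CPM in preOCs. Of the other lists, 1 neutrophil and 1 stromal marker rose. Their part in the iron gene changes was not tested.

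**Figure D3:**
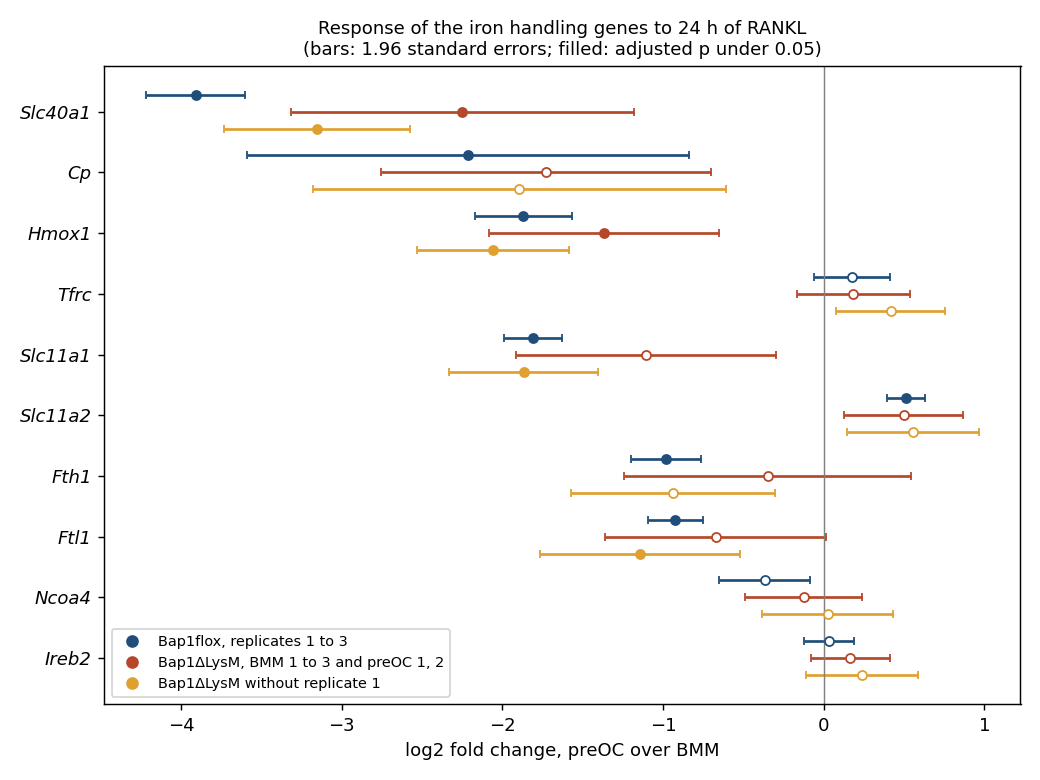
Log2 difference of preOCs against BMMs for each of the 10 genes (edgeR; bars are 95% intervals, filled points passed an adjusted p of 0.05) in Bap1flox replicates 1 to 3, in the Bap1ΔLysM libraries and in those without both replicate 1 libraries. Slc40a1 is the lowest point of the Bap1flox series at -3.91, and at -2.25 and -3.15 in the 2 Bap1ΔLysM fits.

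In Bap1ΔLysM cells, with 3 BMM and 2 preOC libraries, 2 of 10 members were called by edgeR, against 19.6% of 12998 genes (8.2% lower). Slc40a1 was at 571, 332 and 498 CPM in BMMs and 151 and 46.2 in preOCs (log2 -2.25, SE 0.54, edgeR adjusted p = 0.040). Hmox1 was at 1682, 1587 and 1832 and then 913 and 406 CPM (-1.37, SE 0.36, edgeR adjusted p = 0.049). Of 5 fits with 1 library left out, neither call was kept in those without a BMM library. Those without a preOC library leave 1 such library, whose spread is then taken from the BMMs. Over the 5 fits Slc40a1 was at -3.33 to -1.63 (edgeR adjusted p up to 0.12) and Hmox1 at -2.05 to -0.89 (edgeR adjusted p up to 0.15), and Hmox1 also missed the threshold with RLE factors. For both genes the 2 preOC libraries differed from each other by more than the 3 of Bap1flox did. Without both replicate 1 libraries, an alternative chosen after seeing the data that leaves a single preOC library, whose spread is then taken from the BMMs, 4 of 10 members were called, against 32.6% of genes. They were Slc40a1 (-3.15, edgeR adjusted p = 0.00039), Hmox1 (-2.06, 0.00097), Slc11a1 (-1.87, 0.0013) and Ftl1 (-1.14, 0.030).

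Whether the response to RANKL differed between genotypes was tested as an interaction over the 11 libraries of replicates 1 to 3. By edgeR, DESeq2 and voomWithQualityWeights 0 of 10 members were called at adjusted p (edgeR 0%, DESeq2 0.829% and voomWithQualityWeights 0% of all genes). At an unadjusted p under 0.05 edgeR called 1, Slc40a1, against 12.6% of genes. The difference in response of Slc40a1 was 1.65 on the log2 scale (SE 0.54, edgeR adjusted p = 0.34). It was 0.72 (edgeR adjusted p = 0.30) without both replicate 1 libraries. With preOC replicate 2 left out instead, the library labelled Bap1ΔLysM preOC replicate 1 alone stood for that group, with its spread assumed to be that of the other groups, and Slc40a1 (2.26, edgeR adjusted p = 0.040) and Slc11a1 (1.22, edgeR adjusted p = 0.041) were called, 2 of 10 against 0.878% of genes.

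Set on a common scale of CPM per kilobase of exon, the 10 levels spanned a wide range. In Bap1flox BMMs Fth1 led at 14465, followed by Ftl1 at 8586, Hmox1 at 537, Slc11a1 at 225, Slc40a1 at 60.0, Tfrc at 36.6, Ncoa4 at 35.4, Ireb2 at 9.67, Slc11a2 at 8.66 and Cp at 0.75 CPM per kilobase. Tfrc and Ncoa4, and Ireb2 and Slc11a2, overlapped over libraries. In Bap1flox preOCs the order kept its first 4 places, at 8605, 4102, 138 and 70.3 CPM per kilobase, while Slc40a1 stood after Tfrc (44.3), Ncoa4 (34.8), Ireb2 (12.4) and Slc11a2 (12.0), at 5.8. There Hmox1 overlapped Slc11a1 over libraries, Tfrc overlapped Ncoa4, and Ireb2, Slc11a2 and Slc40a1 each overlapped the others. In Bap1ΔLysM preOCs Slc40a1 was at 12.4 CPM per kilobase, with ranges that overlapped those of Ireb2 before it and Slc11a2 (12.0) after it.

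The balance of importer and exporter mRNA can be given as the ratio of Tfrc to Slc40a1 per kilobase. It was 0.622 ± 0.165 (SD, n = 3) in Bap1flox and 1.01 ± 0.231 (n = 3) in Bap1ΔLysM BMMs. In preOCs of the same replicates it was 10.5 ± 1.27 (n = 3) in Bap1flox, and 3.28 and 11.9 in Bap1ΔLysM replicates 1 and 2. In replicates 4 to 6 it was 6.64 ± 2.22 (n = 3) and 5.69 ± 1.30 (n = 3), and the genotypes overlapped in both sets. The ratio of Fth1 to Ftl1 per kilobase was 1.61 in replicates 1 to 3 and 2.69 in replicates 4 to 6 of Bap1flox preOCs, and 1.95 and 3.17 in those of Bap1ΔLysM.

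Across the 17 libraries some members moved together, which is a description only, since the libraries share genotype, RANKL and library set. Pearson's r of log2 CPM was 0.96 for Slc40a1 and Slc11a1, 0.91 for Hmox1 and Slc40a1, 0.90 for Fth1 and Slc11a1 and 0.79 for Ireb2 and Ncoa4. For Hmox1 and Tfrc, both higher in Bap1ΔLysM preOCs, it was -0.05. Of 13376 genes, those most like Hmox1 were Nek6 (r = 0.99), Atg7 (0.98) and Stx4a (0.97), those most like Slc40a1 were Mgst1 (0.99), Hexa (0.99) and Laptm4a (0.99), those most like Tfrc were Rheb (0.93), Vldlr (0.92) and Plekha2 (0.92), and those most like Cp were Cmklr1 (0.90), Aldh1l1 (0.90) and Rbpms (0.90).

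A wider list of 88 iron, heme and iron-sulfur genes, 83 of them matched by symbol, was then read in the same fits. Of the 70 that were tested in preOCs, 4 were higher and 9 lower in Bap1ΔLysM by edgeR at adjusted p, beside the 15.8% of all genes given above, and their median log2 difference was -0.018. Among genes of uptake, Lcn2, which binds bacterial siderophores and is abundant in neutrophils, rose from 10.6 to 33.0 CPM (log2 1.62, SE 0.34, edgeR adjusted p = 0.0088), and Steap3, the endosomal ferrireductase, fell by 0.37 (edgeR adjusted p = 0.017). The neutrophil marker sums given above moved with Lcn2.

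Of 10 tested genes of heme uptake, breakdown and transport, 2 were higher and 2 lower in preOCs, where 15.8% of all genes were called. The biliverdin reductase Blvra (log2 0.43, edgeR adjusted p = 0.043) and the constitutive heme oxygenase Hmox2 (0.27, edgeR adjusted p = 0.040) were higher beside Hmox1. Each of these 2 calls was lost in 8 of 11 fits with 1 library left out, with upper-quartile factors and with no filter on low counts. The heme exporter Abcg2 went from 6.49 to 2.71 CPM (-1.26, edgeR adjusted p = 0.00067), and Slc46a1, a carrier of folate and heme, from 18.0 to 8.42 CPM (-1.10, edgeR adjusted p = 0.0023).

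Of 30 tested genes of heme synthesis and mitochondrial iron 1 was higher and 4 lower, a share near the 15.8% of all genes. The lower ones were Alad, the second enzyme of heme synthesis, at 17.5 against 7.66 CPM (log2 -1.20, edgeR adjusted p = 0.0021), Cisd3 (-0.47), Urod (-0.39) and the mitochondrial transporter Abcb10 (-0.38). The scaffold gene Iscu was higher (0.46, edgeR adjusted p = 0.045). The call of Iscu was lost in 9 of 11 fits with 1 library left out, with upper-quartile factors and with no filter, and those of Cisd3 and Abcb10 in 7 of 11 each, that of Abcb10 also with no filter. Hfe lost its call in 2 of 11 such fits and Steap3 in 1. Hfe, a partner of the transferrin receptor, fell from 26.8 to 12.7 CPM (-1.08, edgeR adjusted p = 0.021), and the iron chaperone Pcbp3 by 0.85.

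In BMMs 1 of 68 tested genes of the wider list was higher and 6 were lower, against 5.32% of all genes called. Hfe fell there too, from 118 to 44.4 CPM (log2 -1.41, edgeR adjusted p = 0.013), as did Abcg2 (-0.78, edgeR adjusted p = 0.030) and Urod (-0.58, edgeR adjusted p = 0.018). Transferrin (Trf, -1.51), the siderophore receptor Slc22a17 (-1.25) and Pcbp4 (-1.04) also fell, and the cytosolic iron-sulfur assembly gene Ciao2a rose by 0.63. Of 6 fits with 1 library left out, the calls of Trf, Slc22a17 and Abcg2 were lost in 5, that of Urod in 3 and those of Hfe, Pcbp4 and Ciao2a in 2. Slc22a17 also did not pass with RLE factors or with all libraries in 1 fit. None of the genes of the wider list passed the test of the interaction in edgeR.

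**Figure D4:**
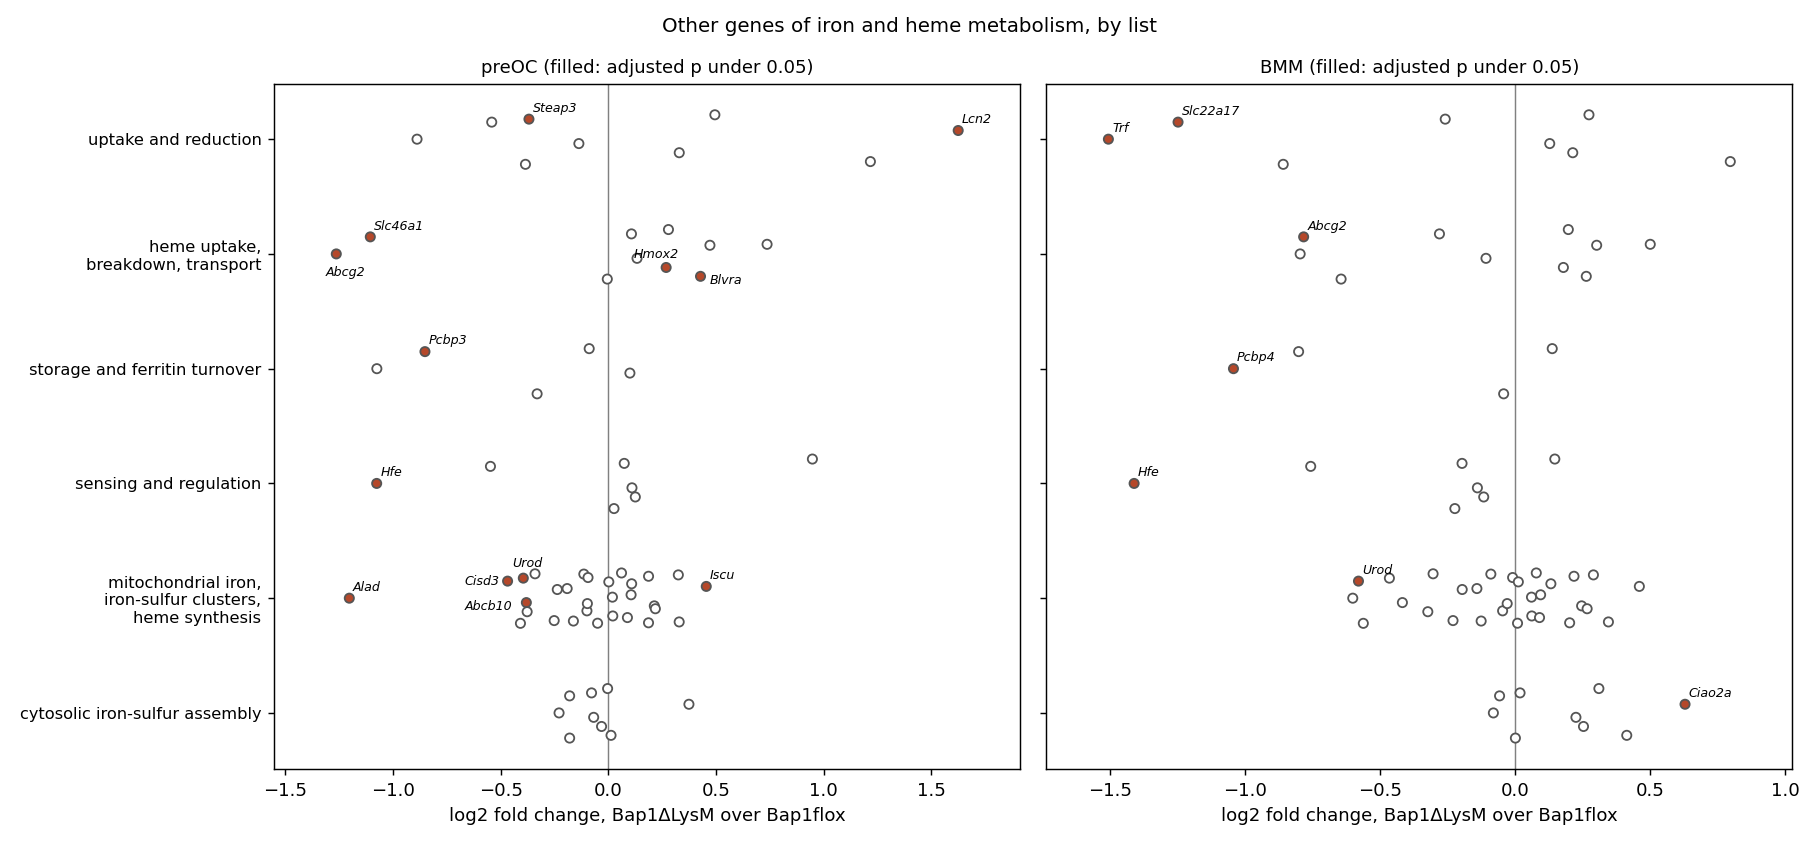
Log2 difference of Bap1ΔLysM against Bap1flox in preOCs and in BMMs for the tested genes of 6 wider iron lists (edgeR), with genes past an adjusted p of 0.05 filled and named. Lcn2 lies highest in preOCs at 1.62, and Abcg2, Hfe and Urod are below 0 and called in both cell types.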

How the data were processed

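The deposited tables give raw read counts per gene, 1 file for each of 17 libraries. Per the study's methods the authors aligned poly-A selected, paired-end reads with STAR 2.5.1a to Ensembl release 76 of GRCm38 and counted unique, unambiguous reads with featureCounts 1.4.6-p5. Whether strand was used is not given in the sources used here. The deposited CPM and RPKM columns were not used. Genes were named from GENCODE M21, 40340 of 41388 identifiers had a symbol, and 355 ribosomal RNA genes were left out. Unique counting can lose reads of Fth1 and Ftl1 to their pseudogenes.

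Library totals were 37967542 to 61369441 counts, and no 2 libraries were duplicates. At this depth counting error is small for all members but Cp.

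A gene was tested where its CPM exceeded 1 in 4 or more of the 11 preOC libraries, or in 2 or more libraries elsewhere. All 10 members passed. Tests were edgeR 4.0.16 quasi-likelihood tests in R 4.3.3 with TMM factors, each fit on the libraries compared, and p was adjusted by Benjamini-Hochberg over all genes tested (threshold 0.05). A prior count of 2 was added for log2 CPM. The fits were tested on simulated counts. Labels do not say that the BMM libraries came from separate mice, so their p-values may measure technical spread. Tables and plots used pandas 2.3.3 and matplotlib 3.10.9.

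Replicate numbers were checked for pairing. How far libraries with the same number lay from their group means correlated at 0.39 to 0.73 in preOCs, 0.36 to 0.54 in BMMs and 0.24 to 0.37 between Bap1flox BMMs and preOCs, so a fit with the number as a block is given where it changes a call. After centring each library set, the preOC values were -0.15 to 0.44.

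All 10 members are named. Of the wider lists every gene called between genotypes is named, apart from 1 gene that was taken out of the lists and is not reported here, and for each member called in preOCs the 3 genes with the highest Pearson's r. The members and lists were chosen with earlier results of these data known. Alternatives were DESeq2 1.42.0, voomWithQualityWeights of limma 3.58.1, RLE and upper-quartile factors, no filter on low counts, ferritin pseudogene counts added, all libraries in a single fit, the replicate block, the library set as a term or each set alone, and each library left out.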

Additional observations from a re-analysis of the deposited data

How the results depend on the processing

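Of 10 members, edgeR called 4 in preOCs, and 2 to 4 with 1 library left out (8.3% to 23.9% of all genes). voomWithQualityWeights called 8 (54.9% of all genes) and replicates 1 to 3 alone 0. DESeq2 (22.5% of all genes), RLE (16.1%) and upper-quartile factors (16.2%), no filter (6.07%) and added pseudogene counts (15.8%) each gave 4, replicates 4 to 6 (33.7%), a term for library set (33.6%) and all libraries in 1 fit (32.5%) 5, and the replicate block (32.8%) 6. In BMMs the 0 called became 2 with DESeq2 (15.9% of all genes), 1 with all libraries in 1 fit (Tfrc, 14.4%) and 1 with the block (16.2%), and stayed at 0 with a library left out (0.0311% to 5.83%). The 7 called in the RANKL response of Bap1flox were 6 to 8 in every alternative run. The share of all genes called there ran from 34.2% (no filter) to 75.8% (voomWithQualityWeights). The 2 called in the RANKL response of Bap1ΔLysM became 4 with DESeq2 (30.7% of all genes), 1 with RLE factors (19.1%), 4 with no filter (12.9%), 5 with all libraries (49.4%) and 4 with the block (21.2%). With 1 BMM library left out they became 0 (0.49% to 8.99% of all genes). Fits that leave 1 preOC library are not counted here. The 0 called in the interaction became 0 to 2. The causes of these shifts were not tested. Apart from Ireb2 and Ncoa4 in preOCs and Hmox1 in BMMs, the block changed no other call where numbers paired the samples. Between Bap1ΔLysM BMMs and preOCs, with only 2 numbers shared (correlations 0.52 and 0.39), it moved the calls from 2 to 4. The added calls were Slc11a1 (-1.21, edgeR adjusted p = 0.038) and Cp (-1.11, edgeR adjusted p = 0.039).

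Signs turned only for differences that did not pass. In preOCs Ftl1 was at -0.14 by voomWithQualityWeights, -0.10 in replicates 4 to 6 and -0.22 to 0.22 with a library left out. Slc11a2 was at 0.013 with DESeq2, 0.013 with RLE factors, 0.0096 with all libraries, 0.0049 with the library set, 0.17 in replicates 1 to 3 and -0.11 to 0.075 with a library left out. In BMMs Fth1 was at -0.0047 with upper-quartile factors and -0.14 to 0.19 with a library left out, and Cp at -0.23 by voomWithQualityWeights and -0.33 to 0.61. With a library left out, Slc11a1 spanned -0.15 to 0.034 and Ncoa4 -0.19 to 0.013. In the RANKL response Ireb2 of Bap1flox spanned -0.0090 to 0.14 and Fth1 of Bap1ΔLysM -1.11 to 0.16 with a library left out, and Ncoa4 of Bap1ΔLysM was at 0.025 without both replicate 1 libraries and -0.32 to 0.066.

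In the interaction, without both replicate 1 libraries, Hmox1 was at -0.22, Tfrc at 0.21, Ftl1 at -0.25, Slc11a1 at -0.090 and Slc11a2 at 0.0074. Tfrc was at 0.091 and Slc11a2 at 0.027 by voomWithQualityWeights, and Tfrc at 0.12 with all libraries. With a library left out Hmox1 spanned -0.22 to 0.96, Tfrc -0.089 to 0.14, Fth1 -0.16 to 1.13, Ftl1 -0.28 to 0.62, Slc11a1 -0.16 to 1.22 and Slc11a2 -0.17 to 0.10. Depth limits Cp most, with 18 reads in its lowest library.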

Other observations

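The wider iron genes were also read in the RANKL response of Bap1flox cells, where 35 were higher and 20 lower in preOCs than in BMMs by edgeR at adjusted p (64.6% of all genes were called, 31.7% higher and 32.9% lower). Of 30 tested genes of mitochondrial iron, iron-sulfur clusters and heme synthesis, 21 rose and 3 fell. The ferredoxin reductase Fdxr rose by 1.45 on the log2 scale and the mitochondrial chaperone Hspa9 by 1.41. Of 9 genes of cytosolic iron-sulfur assembly 7 rose and 1 fell. All 8 proliferation markers rose in the same libraries, and their part was not tested.

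Of 10 tested genes of heme uptake, breakdown and transport, 1 rose and 7 fell (31.7% and 32.9% of all genes did), among them the hemoglobin scavenger receptor Cd163 (log2 -4.72), the biliverdin reductase Blvrb (-1.58) and the heme transporter Slc48a1 (-1.42). Of 9 tested genes of uptake and reduction 2 rose and 4 fell, a share called near the 64.6% of all genes. Transferrin (Trf) fell by 3.26. Hfe fell by 2.33. These genes are also macrophage genes, and all 8 macrophage markers fell in the same libraries. That part was not tested.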
